A study of Papio hamadryas with 14 samples.

Results

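The genes described here encode 10 proteins of the extracellular matrix and the cell surface that the developing kidney shares with most connective tissue: tenascin C (TNC), fibronectin (FN1), decorin (DCN), lumican (LUM), biglycan (BGN), versican (VCAN), periostin (POSTN), thrombospondin 1 (THBS1), osteonectin (SPARC) and glypican 3 (GPC3). Every probe set that the platform annotation assigns to 1 of these symbols was taken, which gave 27 of 16186 probe sets and all 10 genes, out of 9580 genes that have a probe set with 1 symbol. RNA came from whole kidney of the baboon Papio hamadryas, with no treatment named. Fetal kidneys were taken at 60 days of gestation (60dG, 2 arrays) and at 90dG, 125dG and 160dG (3 arrays each), and adult kidneys at 6, 12 and 7 years (adult replicates 1, 2 and 3). The labels call the fetal replicates biological. All 14 RNAs were hybridised to human Affymetrix arrays, so baboon sequence that differs from a human probe can lower a signal. Fetal samples (11 arrays) and adult samples (3 arrays) were run on different array types.

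Fibronectin is a dimeric glycoprotein that binds integrins and is assembled into fibrils, on which other matrix proteins are laid down. Tenascin, periostin, thrombospondin and SPARC are matricellular proteins, which modulate how cells attach to the matrix rather than giving it its strength. Versican is a large chondroitin sulfate proteoglycan that binds hyaluronan, whereas decorin, biglycan and lumican are small leucine-rich proteoglycans that bind collagen fibrils. Glypican 3 carries heparan sulfate chains at the cell surface and modulates growth factor signals, and its loss in humans causes an overgrowth syndrome with kidney dysplasia. In the fetal kidney the interstitial stroma and the mesenchyme around the nephron progenitors are known sources of several of these proteins.

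How precise a value is depends here on the number of arrays. The median probe set signal, on a linear intensity scale, was 172.9 to 194.6 on the fetal arrays and 210.2 to 214.4 on the adult arrays. Markers of kidney epithelium were present: 10 of 11 such genes on the array passed the filter on low values described next. On 90dG replicates 2 and 3 the ratio of 3′ to 5′ signal of the GAPDH control, a measure of RNA integrity and labelling, was 2.465 and 3.43, against 1.62 to 1.99 on the other fetal arrays. For the actin control the ratio was 1.93 and 3.03, against 0.85 to 1.505. Several results that rest on these arrays, though not all, are given with and without them. Whole tissue was measured, so fewer cells of a type and less RNA per cell cannot be told apart.

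In the fetal kidney 5 of the 9 genes that could be tested (TNC, FN1, VCAN, SPARC and GPC3) passed at least 1 test, each by 1 probe set, and in the adult kidney 6 of the 10 were lower, by 3.25-fold (POSTN) to 14.6-fold (TNC) for the probe set with the highest fetal mean of each. The share of all genes was not counted for either, so no excess can be read from these 2 counts. The adult arrays are of another type, so for the adult count and folds array type and age cannot be told apart. A gene with several probe sets and tests also had more ways to pass. Probe sets with a mean over the fetal arrays above that of the median probe set (7.60 on the log2(signal + 16) scale, a signal of 177.8) were tested, which kept 21 of the 27 probe sets and 9 of the 10 genes. Over the 4 fetal stages 2 of the 21 differed (limma moderated F, adjusted p under 0.05), those of FN1 (214701_s_at) and GPC3 (209220_at), beside 17.8% of all 8066 tested probe sets. At 160dG against 60dG 2 of 21 were higher, those of TNC (201645_at) and SPARC (212667_at), beside 5.68% of all tested. For the linear trend over gestation 1 of 21 fell, a VCAN probe set (204620_s_at), beside 4.44%. The 95% interval of the difference between 60dG and 160dG lay within a 2-fold change either way for 11 of the 21 member probe sets and for 67.4% of all tested. The median difference was -0.01 for the members and -0.02 for all tested probe sets, on the log2(signal + 16) scale.

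**Figure D1:**
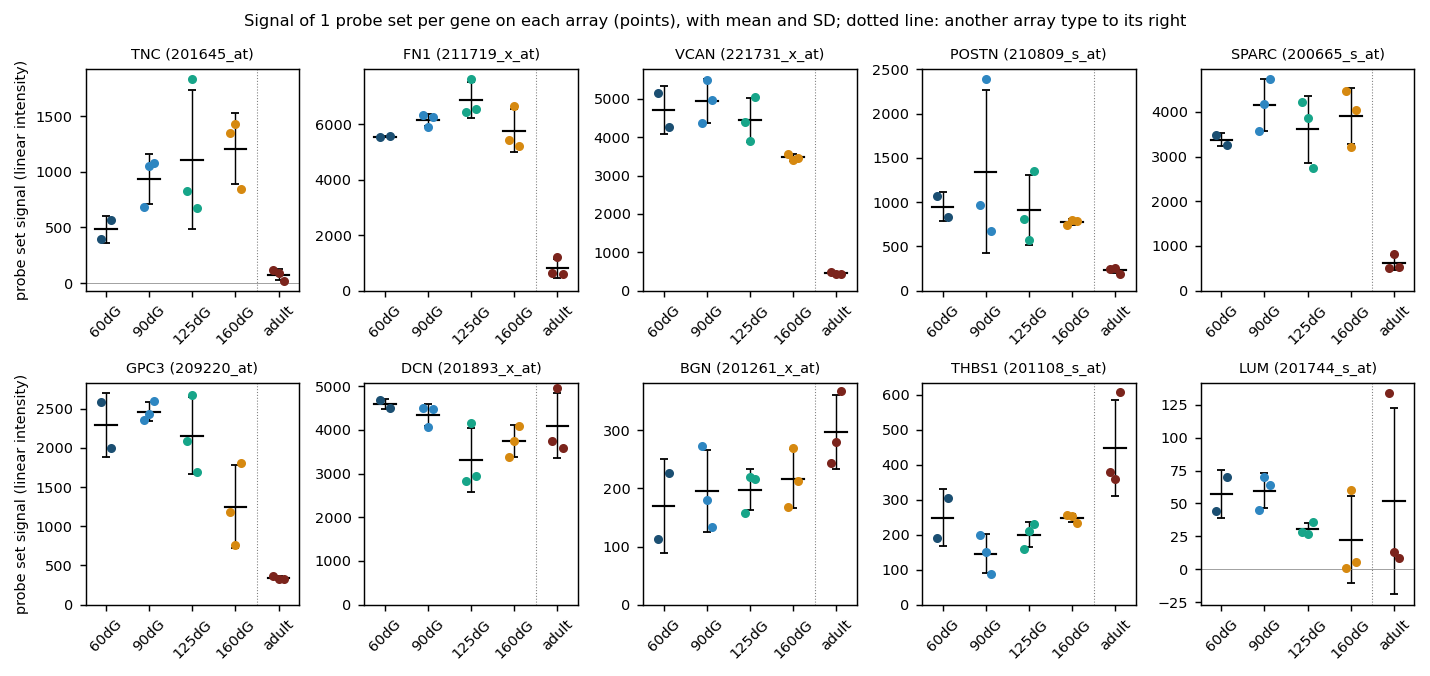
Signal (linear intensity, vertical axis) of the probe set with the highest fetal mean for each of the 10 genes, by group (horizontal axis: 60dG, 90dG, 125dG, 160dG and adult). Points are single arrays, the horizontal bar is the group mean and the whisker the SD; the adult arrays, right of the dotted line, are of another array type. For TNC, FN1, VCAN, POSTN, SPARC and GPC3 the 3 adult arrays lie below all 11 fetal arrays, whereas for DCN the adult signals of 3580 to 4947 overlap the fetal ones.

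By 4 of its 5 probe sets fibronectin did not pass in any fetal comparison. For 211719_x_at, the probe set with the highest mean, the signals were 5532 and 5570 at 60dG, then 6326, 5900 and 6243 at 90dG, 6436, 7620 and 6562 at 125dG, and 5446, 6639 and 5196 at 160dG. The 125dG arrays were above those of 60dG and 90dG, while 160dG held the 2 lowest of the 11 arrays and also 1 of the 3 highest. The difference between 60dG and 160dG was 0.045 (95% interval -0.24 to 0.33, limma, adjusted p = 0.887). The other 3 of these probe sets gave differences of -0.01 to 0.14 between the same stages, and the stage means of all 4, highest at 125dG, spanned 1.19-fold to 1.23-fold. With quantile normalization 211719_x_at and 210495_x_at passed over the stages (limma, adjusted p = 0.0353 and 0.0319), and 210495_x_at from 90dG to 125dG, at 0.49 (0.0375) against 0.26 without it. Names ending in _x_at mark probes that may bind unrelated transcripts, and those ending in _s_at probes shared by transcripts of 1 gene or family.

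The fifth FN1 probe set behaved differently. Signals of 214701_s_at were 170.4 and 353.6 at 60dG, then 286.0, 81.1 and 37.6 at 90dG, 566.3, 786.9 and 716.5 at 125dG, and 284.2, 675.1 and 247.9 at 160dG. The lowest values were those of 90dG replicates 2 and 3, and the 125dG arrays lay above all arrays of 60dG and 90dG. From 90dG to 125dG it rose by 2.59 ± 0.52 (SE of the fit, limma, adjusted p = 0.0144), the only 1 of 21 member probe sets called higher in this step, beside 3.79% of all tested. With the GAPDH ratio as a covariate the difference was 1.61 (adjusted p = 0.0896). Without 90dG replicates 2 and 3, an alternative chosen after seeing the data, it was 1.21 (adjusted p = 0.248). Leaving out single arrays, the call was lost without 90dG replicate 3 (adjusted p = 0.0527) or 125dG replicate 3 (0.0582), and the call over the stages without 90dG replicate 2 (0.0668) or 3 (0.0543). Without both, the adjusted p over the stages was 0.104, with the GAPDH covariate 0.0655 and without the 90dG group 0.0931. Without 90dG replicate 1 a fall from 60dG to 90dG of -1.86 was called as well (adjusted p = 0.0171). That fit leaves 90dG replicates 2 and 3 alone for their stage, the arrays with the high GAPDH ratios. With all arrays the difference from 60dG to 90dG was -1.17 (limma, adjusted p = 0.219). With the GAPDH covariate it was -0.18 (0.871), and without 90dG replicates 2 and 3 it was 0.20.

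Tenascin C, a glycoprotein of developing mesenchyme and of healing tissue, was higher at 160dG than at 60dG. Its probe set 201645_at gave signals of 395.4 and 571.2 at 60dG, 680.6, 1050 and 1081 at 90dG, 824.3, 1832 and 677.3 at 125dG, and 1349, 1430 and 841.9 at 160dG. Both 60dG arrays were below every later array, while the 3 later stages overlapped one another. Group means were 483 ± 124 (SD, n = 2), 937 ± 223, 1111 ± 629 and 1207 ± 319 (SD, n = 3 each). Between 60dG and 160dG the gene rose by 1.28 ± 0.37 (log2 scale, SE, limma, adjusted p = 0.0442), with all 3 of the 160dG arrays above both 60dG arrays. That call was lost without 60dG replicate 1 (adjusted p = 0.314) or 2 (0.0889), 90dG replicate 2 (0.06), 125dG replicate 1 (0.056) or 160dG replicate 1 (0.118) or 2 (0.12), and with no filter (0.062) or no intensity trend (0.0633). The trend over gestation, 0.11 log2 per 10 days (0.0829), passed with the GAPDH covariate (0.039), without the 90dG group (0.0402) and without 90dG replicates 2 and 3 (0.0342). Without 125dG replicate 2 the difference over the 4 stages passed too (0.0362), which it did not with all arrays (0.0949). The steps gave 0.93 ± 0.37 from 60dG to 90dG, 0.13 ± 0.33 to 125dG and 0.22 ± 0.33 to 160dG, and none passed. Without 90dG replicates 2 and 3 the step from 60dG to 90dG was 0.50 and that to 125dG 0.56. A second TNC probe set, 216005_at, lay below the filter, with signals of 47.7 to 137.2 on the fetal arrays, and showed no such order.

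SPARC, a collagen-binding glycoprotein of bone and basement membranes, had 2 probe sets that differed in their course. Signals of 200665_s_at were 3479 and 3270 at 60dG, 3572, 4172 and 4732 at 90dG, 4211, 3858 and 2755 at 125dG, and 4459, 3213 and 4050 at 160dG. All stages but 60dG and 90dG overlapped, and the difference between 60dG and 160dG was 0.20 (95% interval -0.23 to 0.62, limma, adjusted p = 0.61). For 212667_at the signals were 134.6 and 306.2 at 60dG, 441.4, 343.8 and 387.5 at 90dG, 253.2, 365.8 and 241.6 at 125dG, and 473.5, 556.8 and 350.5 at 160dG. Here the 60dG arrays were below all arrays of 90dG and 160dG, but not below those of 125dG. The rise between 60dG and 160dG was 1.09 ± 0.31 (SE, limma, adjusted p = 0.0393). It was lost without 60dG replicate 1 (0.54, adjusted p = 0.455), 90dG replicate 2 (0.0515), 125dG replicate 1 (0.0533) or 160dG replicate 1 (0.0993) or 2 (0.113), and with no filter (0.0667). Without 60dG replicate 2 the difference over the stages (0.0197) and the step from 60dG to 90dG (1.43, 0.0326) passed as well. Over the 11 fetal arrays the 2 SPARC probe sets had a Pearson correlation of 0.25, given as a description.

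Periostin, a matricellular protein that integrins bind, varied widely between arrays of 1 stage. Signals of its only probe set were 1067 and 830.4 at 60dG, 963.9, 2392 and 677.9 at 90dG, 809.4, 575.5 and 1351 at 125dG, and 741.1, 802.5 and 787.7 at 160dG. One 90dG array, replicate 2, stood above all others. The difference between 60dG and 160dG was -0.27 (95% interval -1.18 to 0.64, limma, adjusted p = 0.76). Thrombospondin 1, which can activate latent TGF-beta, gave 190.5 and 306.4 at 60dG, 199.6, 150.4 and 88.0 at 90dG, 159.4, 209.8 and 229.5 at 125dG, and 255.2, 254.2 and 233.5 at 160dG by 201108_s_at, near the filter. The 160dG arrays lay above those of 90dG and 125dG and within the range of 60dG. Its differences did not pass, with 0.03 ± 0.32 between 60dG and 160dG (SE, limma, adjusted p = 0.97). The other 2 THBS1 probe sets were below the filter.

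**Figure D2:**
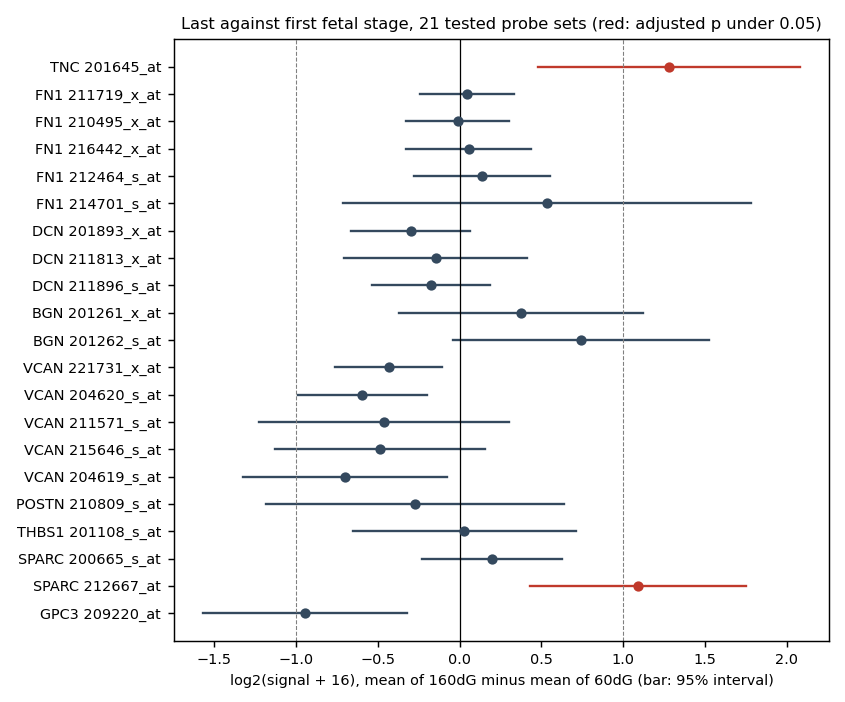
Difference between the mean of the 160dG and that of the 60dG arrays on the log2(signal + 16) scale (horizontal axis) for the 21 tested probe sets (vertical axis); bars are 95% intervals from limma and dashed lines mark a 2-fold change. TNC 201645_at (1.28) and SPARC 212667_at (1.09), in red, passed at an adjusted p under 0.05, and all 5 VCAN probe sets lie left of 0, from -0.43 to -0.70.

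For versican the difference between 60dG and 160dG was negative in all 5 probe sets, from -0.43 to -0.70, but none passed (limma, adjusted p of 0.0581 to 0.485). In each of the 5 the 3 arrays of 160dG lay below both 60dG arrays, a lack of overlap in this direction found for 22.4% of all tested probe sets. Signals of 221731_x_at were 5157 and 4268 at 60dG, 4368, 5500 and 4973 at 90dG, 4406, 3907 and 5050 at 125dG, and 3571, 3401 and 3445 at 160dG. The 160dG arrays were below every earlier array, and the 3 earlier stages overlapped. For 204620_s_at the signals were 4303 and 3991 at 60dG, 4198, 4382 and 3414 at 90dG, 3843, 2599 and 3899 at 125dG, and 2792, 2881 and 2561 at 160dG. This probe set fell along gestation, by 0.06 ± 0.02 log2 per 10 days (SE, limma, adjusted p = 0.0383), while the difference between 60dG and 160dG, -0.59 ± 0.18, did not pass (adjusted p = 0.0581). The trend call was lost without 60dG replicate 1 (adjusted p = 0.0834) or 2 (0.0526), 90dG replicate 1 (0.0551) or 2 (0.062), or 160dG replicate 1 (0.0894), 2 (0.0813) or 3 (0.118), with quantile normalization (0.188), with no filter (0.058), with no intensity trend (0.0676) and without the 90dG group (0.0508). With the GAPDH covariate the difference between 60dG and 160dG passed (0.0463). Without 90dG replicate 3 or 125dG replicate 2 the difference between 60dG and 160dG passed (0.0485 and 0.0268), and without the latter so did that over the stages (0.0323). For 221731_x_at the trend passed without 60dG replicate 2 (0.0424), and the difference over the stages without 90dG replicate 1 (0.0351).

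The 5 VCAN probe sets fell into different courses at 90dG. Signals of 211571_s_at were 2555 and 2469 at 60dG, 2014, 1406 and 647.8 at 90dG, 2921, 1776 and 2833 at 125dG, and 1968, 1956 and 1563 at 160dG. Those of 215646_s_at were 2052 and 1919, then 1662, 1111 and 686.0, then 1809, 1296 and 1414, and last 1717, 1473 and 1118. In both, 90dG replicates 3 and 2 were the lowest of the 11 arrays, whereas 221731_x_at was highest of all 11 arrays on 90dG replicate 2. The 2 probe sets had a Pearson correlation of 0.91 with each other over the 11 fetal arrays, 221731_x_at and 204620_s_at one of 0.83, and the 4 pairs across them correlations of -0.14 to 0.27. From 60dG to 90dG the differences were -1.02 ± 0.36 for 211571_s_at and -0.86 ± 0.30 for 215646_s_at (SE, limma, adjusted p = 0.0882 and 0.0875). Without 90dG replicate 1, which leaves 90dG replicates 2 and 3, they passed, at -1.38 (0.0134) and -1.17 (0.0115). For 211571_s_at the step to 125dG then passed too, at 1.34 (0.00988). The differences of both probe sets over the stages passed without 90dG replicate 1 as well (0.0159 and 0.0287). With the GAPDH ratio as a covariate the 2 differences from 60dG to 90dG were -0.37 and -0.35 (limma, adjusted p = 0.467 and 0.441), and without 90dG replicates 2 and 3 they were -0.32 and -0.25. The fifth VCAN probe set, 204619_s_at, gave 1094 and 1470 at 60dG, 703.4, 1145 and 742.9 at 90dG, 1208 (replicate 1), 718.9 and 596.6 at 125dG, and 707.2, 731.1 and 904.5 at 160dG. It was not lowest on 90dG replicates 2 and 3.

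**Figure D3:**
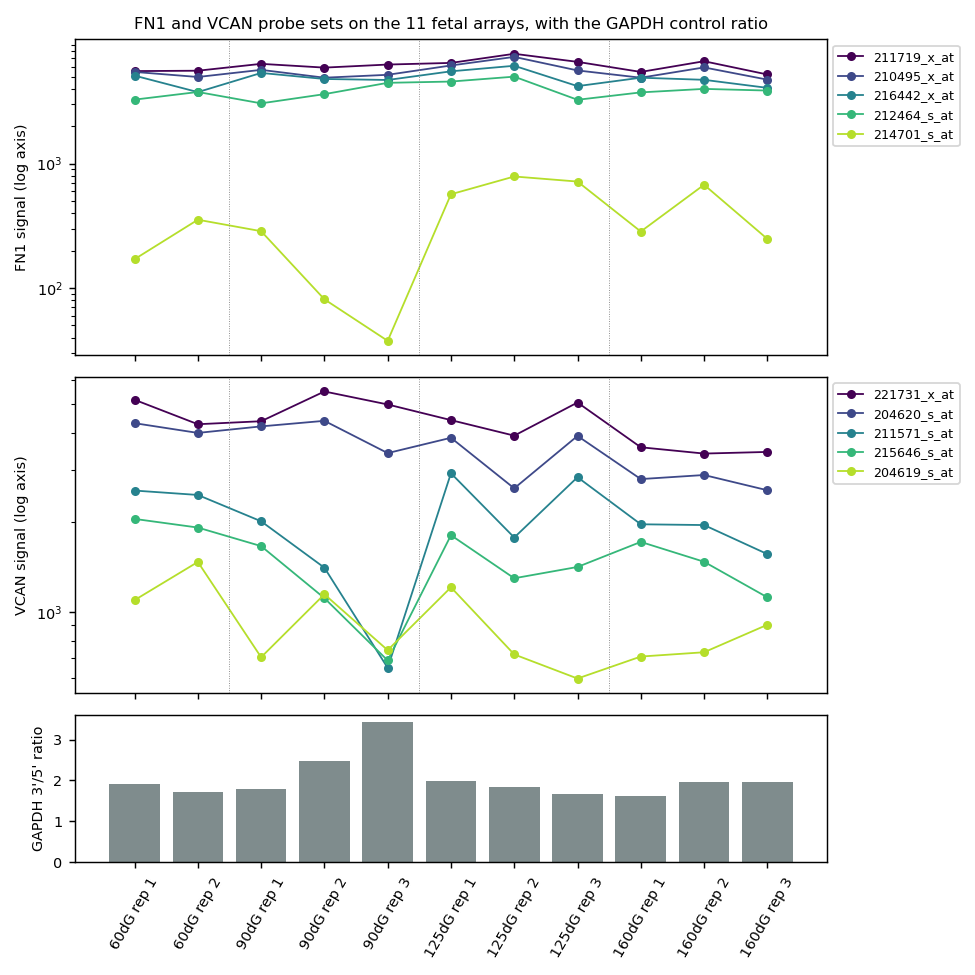
Signals of the 5 FN1 and 5 VCAN probe sets (log axes) on each of the 11 fetal arrays, over the 3′ to 5′ signal ratio of the GAPDH control (bars, lowest panel). FN1 214701_s_at and VCAN 211571_s_at and 215646_s_at drop on 90dG replicates 2 and 3, where the ratio is 2.465 and 3.43, while FN1 211719_x_at and VCAN 221731_x_at do not.

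Decorin, which binds collagen fibrils and TGF-beta, changed little. Signals of 201893_x_at were 4678 and 4503 at 60dG, 4500, 4054 and 4480 at 90dG, 2839, 4157 and 2937 at 125dG, and 3369, 3755 and 4095 at 160dG. The 60dG arrays were the highest, and 125dG held the 2 lowest arrays. In 3 of 4 DCN probe sets, those that passed the filter, the mean was highest at 60dG and lowest at 125dG, 1.41-fold to 1.54-fold apart. None of the 3 passed in a comparison between stages, and between 60dG and 160dG they differed by -0.15 to -0.30, with 95% intervals from -0.70 to 0.41. Without 125dG replicate 2, the step from 90dG to 125dG passed for 201893_x_at, at -0.59 (limma, adjusted p = 0.0416). The differences over the stages then passed for 201893_x_at (0.0287) and 211896_s_at (0.0337). The fourth DCN probe set, 209335_at, lay below the filter.

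Biglycan, the close relative of decorin, was measured near or below the filter by 3 probe sets. Signals of 201261_x_at were 112.3 and 227.0 at 60dG, 272.9, 180.0 and 134.2 at 90dG, 157.6, 219.7 and 216.7 at 125dG, and 167.7, 270.2 and 212.7 at 160dG. All stages overlapped. The second tested BGN probe set, 201262_s_at, gave 122.3 and 120.1 at 60dG and 140.1 to 370.6 at the later stages but for 124.3 on 125dG replicate 1, and its difference between 60dG and 160dG was 0.74 ± 0.36 (SE, limma, adjusted p = 0.237). From 60dG to 90dG it was 0.77 (adjusted p = 0.2), and with the GAPDH ratio as a covariate 1.34 (0.0418). Without 90dG replicates 2 and 3, which leaves a single 90dG array, it was 1.49. Lumican, the third member of this family here, had 1 probe set, which did not pass the filter: its signals were 0.9 to 70.5 on the 14 arrays but for 133.7 on adult replicate 1. No course can be read from it.

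Glypican 3 had its lowest mean at 160dG, and passed over the 4 stages, but in no step and not between 60dG and 160dG. Its signals were 2587 and 2006 at 60dG, 2362, 2431 and 2600 at 90dG, 2090, 2682 and 1699 at 125dG, and 1179, 761.2 and 1813 at 160dG. The 3 arrays of 160dG lay below all arrays of 60dG and 90dG, and overlapped those of 125dG through replicate 3 of each. Means were 2296 ± 411 (SD, n = 2), 2464 ± 123, 2157 ± 495 and 1251 ± 530 (SD, n = 3 each). The difference over the 4 stages passed (limma moderated F, adjusted p = 0.0361). Between 60dG and 160dG it was -0.94 ± 0.29 (SE, limma, adjusted p = 0.056), and from 125dG to 160dG -0.84 ± 0.26 (adjusted p = 0.321). The call over the stages was lost without 60dG replicate 1 (0.0691) or 2 (0.051), 90dG replicate 2 (0.0706) or 3 (0.072), 125dG replicate 1 (0.0555), or 160dG replicate 1 (0.093) or 2 (0.133). It was also lost with the GAPDH covariate (0.0669), without 90dG replicates 2 and 3 (0.116), without the 90dG group (0.109), with quantile normalization (0.0511) and with no intensity trend (0.0584). Without 160dG replicate 3 the difference between 60dG and 160dG was -1.25 (limma, adjusted p = 0.00865), and with the GAPDH covariate it was -0.95 (0.0477). The trend, -0.10 per 10 days with an adjusted p of 0.0545, passed without 60dG replicate 2 (0.0373) or 125dG replicate 2 (0.0415). It also passed with a filter at the 0.75 quantile (0.0458) and with 1 probe set per gene (0.046). The difference between 60dG and 160dG passed with these 2 settings (0.0496 and 0.0444) and with array weights (0.0337).

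Genes whose signal followed that of GPC3 most closely over the 11 fetal arrays were RNF126, a ubiquitin ligase (Pearson r = 0.91), EIF3H, a subunit of a translation initiation factor (0.90), and CAD, the enzyme that starts pyrimidine synthesis (0.89). These are descriptions of 11 arrays that share their stages. Such likeness was described for genes whose highest probe set passed over the stages, and among the 10 only GPC3 did.

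By single steps few member probe sets were called. From 60dG to 90dG 0 of 21 member probe sets passed in limma beside 8.86% of all tested, and 5 of 21 had an unadjusted p under 0.05, beside 26.1% of all tested. In the step from 90dG to 125dG 1 passed, beside 6.77%, and 3 of 21 had an unadjusted p under 0.05, beside 25.5%. From 125dG to 160dG 0 passed, beside 0.223% of all tested, and 6 of 21 had an unadjusted p under 0.05, beside 7.8% of all tested. Between 60dG and 160dG the arrays of the 2 stages did not overlap for 9 member probe sets that were lower and 3 that were higher at 160dG, beside 22.4% and 20.1% of all tested probe sets. The 9 were the 5 of VCAN, 2 of DCN and those of POSTN and GPC3; the 3 were those of TNC, SPARC (212667_at) and BGN (201262_s_at). Since 5 of the 9 lower probe sets measure 1 gene, they are not 9 separate observations, and none of the 9 passed the test of this difference in limma (6 of the 21 had an unadjusted p under 0.05 in either direction, beside 23.7% of all tested).

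The adult kidney gave a wider contrast. Adult and fetal tables were made separately and on different array types, so array type and age cannot be told apart, and their values stand side by side with no test. The 3 adult arrays were below the 3 of 160dG, without overlap and by at least 2-fold, for 14 of the 27 member probe sets, beside 9.82% of all 16143 probe sets that are not controls. Counted over tested probe sets the share was 14 of 21, beside 14.5%. The filter used the fetal arrays only and so favours probe sets that are high in the fetus, which raises both of these shares. No member was higher by this rule, beside 13.3% of all probe sets and 4.45% of the tested ones. For 13 of 27 the adult arrays lay below all 11 fetal arrays, beside 11.6% of all probe sets, and for 1 of 27 above them, beside 17.9%. The median difference was -1.21 over the 27 probe sets and 0.11 over all. The 14 probe sets belong to TNC, FN1, VCAN, POSTN, SPARC and GPC3. Several measure the same gene, most of all VCAN and FN1, so they are not 14 separate observations. The members were chosen with earlier results of these data known, so these counts are not an independent test.

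**Figure D4:**
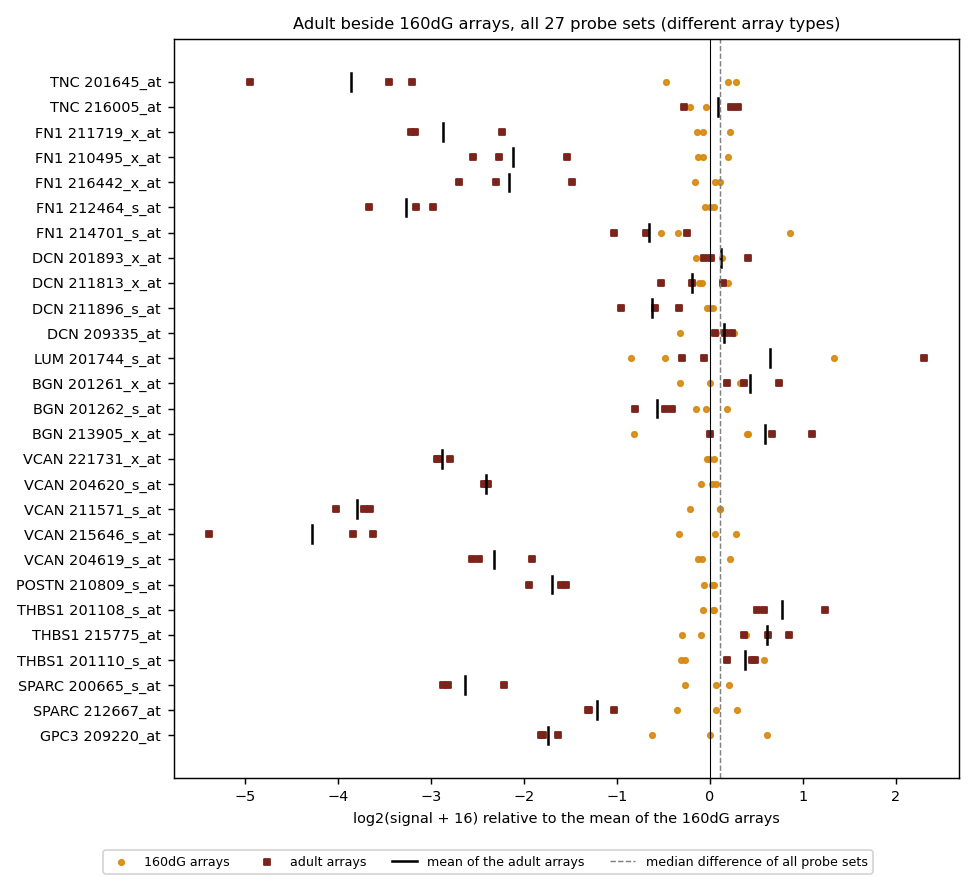
Signals of the 3 adult arrays (squares) and the 3 160dG arrays (dots) for all 27 probe sets (vertical axis), as log2(signal + 16) relative to the mean of the 160dG arrays (horizontal axis). The black tick is the adult mean and the dashed line the median difference of all probe sets (0.11). The TNC 201645_at, FN1, VCAN, POSTN, SPARC and GPC3 squares lie left of the dots except for FN1 214701_s_at, and those of DCN, BGN, THBS1 and LUM overlap the dots, except for DCN 211896_s_at (-0.63) and BGN 201262_s_at (-0.56), left of them, and THBS1 201108_s_at (0.78), right of them.

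Tenascin C had adult signals of 113.6, 93.0 and 22.7, against 841.9 to 1430 at 160dG, a difference of -3.87 on the log2(signal + 16) scale. Adult signals this low are below the median probe set, where the added 16 makes a difference look smaller than it is. FN1 211719_x_at gave 618.6, 1204 and 603.3 in the adults, a difference of -2.88 from 160dG. The other 3 of those 4 FN1 probe sets differed by -2.12, -2.16 and -3.27, and 214701_s_at, whose adult signals of 170.3 to 303.4 overlapped those of 160dG, by -0.65.

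Versican was low in the adults by every probe set. The adult signals were 484.8, 440.5 and 442.1 for 221731_x_at and 505.2, 494.7 and 512.3 for 204620_s_at, and the 3 animals were close to one another. The differences from 160dG over the 5 VCAN probe sets ran from -2.32 to -4.29. SPARC 200665_s_at gave adult signals of 516.1, 821.5 and 536.0 (difference -2.63) and 212667_at 172.8, 212.7 and 174.7 (-1.21). For POSTN they were 244.7, 255.7 and 189.4 (-1.70), and for GPC3 368.2, 328.6 and 323.4 (-1.75). The adult mean of GPC3 was 340 ± 24.5 (SD, n = 3), against 1251 ± 530 (SD, n = 3) at 160dG.

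No probe set of the small proteoglycans or of thrombospondin 1 was lower by this rule. DCN 201893_x_at gave 3750, 4947 and 3580 in the adults, within or above the 3369 to 4095 of 160dG, and a difference of 0.12. Another DCN probe set, 211813_x_at, differed by -0.19 with overlap, and 211896_s_at, at 1584, 1892 and 1220 in the adults, by -0.63 without overlap. BGN 201261_x_at and 201262_s_at differed by 0.43 with overlap and by -0.56 without overlap, in opposite directions. The adult signals of THBS1 201108_s_at were 378.1, 358.5 and 607.4, above all 11 fetal arrays, and the difference was 0.78. This lies at percentile 78.3 of the differences of all probe sets. The 6 probe sets below the filter differed by 0.08 to 0.65, all with overlap. With quantile normalization of all 14 arrays, with each array scaled to 1 median, or with a pseudocount of 1 or 64, the count of 14 lower probe sets and 0 higher was the same.

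Within the adults, the array of the animal aged 12 years was the highest of the 3 for 8 of the 14 lower probe sets, among them the 4 FN1 and both SPARC probe sets, against 38.4% of all tested probe sets that were lower by the same rule. With 1 animal per age this describes single kidneys.

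Other matrix genes moved in both directions. Of 44 relatives of these genes on the array (other small proteoglycans, syndecans, glypicans, thrombospondins, matricellular and matrix glycoproteins), each by its highest probe set, 25 were tested and 9 differed over the fetal stages. Over the stages 17.8% of all tested probe sets differed. Between 60dG and 160dG 8 of the 25 rose in limma, beside 5.68% of all tested, and the rest did not pass. Their median difference was 0.29. Such shares count every probe set of a gene, not its highest alone. The matricellular protein CCN1 rose by 1.97 ± 0.25, the calcification inhibitor MGP by 1.82 ± 0.28, THBS2, a paralogue of THBS1, by 1.80 ± 0.21 and ECM2 by 1.38 ± 0.27 (log2 scale, SE). In the adults 9 of the 44 were lower and 10 higher by the rule used above, beside 9.82% and 13.3% of all probe sets. Of the 25 that passed the filter 8 were lower and 2 higher, beside 14.5% and 4.45% of the tested ones. Most of the 10 that were higher thus lay below the filter, which used the fetal arrays only. They need not be dim in the adults: TNR, not tested, had an adult mean of 318.8 against 112.2 at 160dG. Array type cannot be told apart from age for them either.

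Receptors and the enzymes that build glycosaminoglycan chains were also counted. Of 17 receptor genes on the array (integrins and others that bind these proteins) 7 were tested. Over the stages 0 differed in limma, beside 17.8% of all tested probe sets, and 1 had an unadjusted p under 0.05, beside 34%. Of 30 genes of glycosaminoglycan synthesis 16 were tested and 1 differed, the sulfotransferase CHST3, with means of 224.5, 418, 277 and 261 at 60dG, 90dG, 125dG and 160dG. Another sulfotransferase, CHST1, named after its values were seen, rose between 60dG and 160dG by 0.96 (limma, adjusted p = 0.0307). No other of the 16 passed there, where 9.83% of all tested probe sets did. In the adults 4 of the 17 receptors were lower and 2 higher, and 4 of the 30 enzymes lower and 1 higher. Of all probe sets 9.82% were lower and 13.3% higher. Integrin beta 1 (ITGB1), a subunit of most fibronectin receptors, named here after its values were seen, was at 3879 at 160dG and 929 in the adults, a difference of -2.10.

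Markers of stroma and fibroblasts moved with the adult difference: 9 of 10 on the array were lower in the adults by the same rule. All 10 were tested, and 14.5% of all tested probe sets were lower by it. The summed signal of the 10 was 33443 to 37445 on the 160dG arrays and 4963 to 8782 on the adult arrays. The collagen chain COL1A1 differed by -4.09 and the stromal transcription factors FOXD1 and TCF21 by -3.37 and -3.24. PDGFRA, a receptor of mesenchymal cells, differed by -2.09. Of the stroma list 5 of 10 differed over the fetal stages, beside 17.8% of all tested probe sets. The summed signal of 8 pericyte and smooth muscle markers was 2053 to 3030 at 160dG and 2086 to 2573 in the adults, and that of 11 kidney epithelium markers 10844 to 15005 and 18323 to 20586. In the fetal kidney FOXD1 fell by 1.27 between 60dG and 160dG, TCF21 and PDGFRA rose by 0.58 and 0.54, and COL1A1 fell by 0.48 (limma). Cartilage markers (12 on the array) summed to 2812 to 3013 at 60dG, 1067 to 1343 at 160dG and 1608 to 1748 in the adults. Only 4 of the 12 were tested, of which COL2A1, SOX9 and COL11A1 were each lower in limma. Of all tested probe sets 4.15% were lower at 160dG than at 60dG. Below the filter the means went both ways: ACAN had 49.55 at 60dG and 96.0 at 160dG, and HAPLN1 88.3 and 37.7. The sums of 7 endothelial, 6 leukocyte and 5 platelet and red cell markers were 2774 to 2936, 540.8 to 706 and 761.3 to 868.1 at 160dG, and 1638 to 2302, 840 to 952.1 and 1753 to 2216 in the adults. Their part in the results on the matrix genes was not tested.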

How the data were processed

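Total RNA of 14 samples of whole baboon kidney was labelled and hybridised to human Affymetrix arrays, per the labels' protocols. The deposited tables hold 1 linear intensity per probe set and array. The submitters' processing notes name GCOS as the authors' software, while version, signal algorithm and scaling are not given in the sources read. The 2% trimmed means were 344.3 to 352.1 on the fetal and 330.1 to 333.9 on the adult arrays, so no rescaling was applied.

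Symbols came from the platform annotation (14068 probe sets with 1 symbol, 735 with several, 1340 with none besides 43 controls). Values were taken as log2(signal + 16), which understates changes of dim probe sets. In R 4.3.3, limma 3.58.1 (lmFit, then eBayes with an intensity trend) was fitted to the 11 fetal arrays over 8066 probe sets above the median mean, with Benjamini-Hochberg adjusted p under 0.05. The p-values use 1 spread per probe set, shared by all fetal stages of 2 or 3 arrays and moderated over all tested probe sets. For the trend it is the spread around the fitted line. Adult and 160dG arrays were compared without a test, by lack of overlap and a 2-fold difference of means.

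All probe sets of the 10 genes are described. From each list of other genes, up to 4 were to be named, those called over the stages with the largest difference between 60dG and 160dG. Members and gene lists were chosen with earlier results of these data known. On simulated data with 200 changed probe sets among 8066, 42% of 2-fold and 95% of 4-fold changes between 60dG and 160dG were recovered. For a steady change over gestation the test over the stages recovered 20% and 90.5%, and the linear trend 60% and 94.5%. In the simulation a 2-fold course was thus mostly missed over the stages. In these data 1432 probe sets were called there. The adjusted p of a probe set depends on how many others change, so recovery in these data can differ. Same-numbered arrays of different stages did not deviate together (15 pairs, correlations of -0.10 to 0.20, 3 of them over 0.1), so no block was used. Alternatives covered the pseudocount, filter, normalization, array weights, covariate and each array left out.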

Additional observations from a re-analysis of the deposited data

How the results depend on the processing

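The counts of called member probe sets are small and several moved. Over the 4 stages the count of 2 became 1 with a filter at the 0.75 quantile, without an intensity trend and with 1 probe set per gene, 7 with array weights, and 0 with the GAPDH ratio as a covariate, without the 90dG group and without 90dG replicates 2 and 3 (chosen after seeing the data). Array weights added TNC 201645_at (limma, adjusted p = 0.0459), DCN 211896_s_at (0.0451) and VCAN 221731_x_at (0.021), 204620_s_at (0.0385) and 211571_s_at (0.0468). For the linear trend the count of 1 became 0 without a filter, with quantile normalization, without an intensity trend and with the replicate block, and 2 with the 0.75 quantile filter, with the covariate and without 90dG replicates 2 and 3. Between 60dG and 160dG the count of 2 became 0 without a filter, 1 without an intensity trend, and 4 with array weights or the covariate. From 60dG to 90dG the count of 0 became 3 with array weights and 1 with the covariate. From 90dG to 125dG the count of 1 became 2 with quantile normalization or array weights, and 0 with the 0.75 quantile filter, 1 probe set per gene, the covariate, or without 90dG replicates 2 and 3. The causes were not tested. Leaving out 1 array at a time gave 0 to 6 over the stages, 0 to 2 for the trend, 0 to 3 between 60dG and 160dG, 0 to 3 and 0 to 2 for the first and the second step, 0 to 0 for the third, and 14 to 15 for the adult count of 14. With the replicate block the counts were otherwise 3 over the stages, 2 between 60dG and 160dG, and 0, 1 and 0 for the steps. The 3 over the stages are not those called without the block: GPC3 209220_at was lost (adjusted p = 0.0503) and TNC 201645_at (0.0354) and SPARC 212667_at (0.0479) were gained, and for the trend VCAN 204620_s_at was lost (0.069).

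Over all tested probe sets the called counts moved as well: 1432 over the stages (2194 with array weights, 613 without the 90dG group, 791 without 90dG replicates 2 and 3), 715 from 60dG to 90dG (1361 with array weights, 386 with the covariate) and 546 from 90dG to 125dG (1230, and 137 with the covariate). Of 2754 alternative values of single member probe sets in the fetal comparisons, 2660 kept their side of the threshold, 48 lost a call and 46 gained one. Most of these values belong to differences that were not called. The VCAN 204620_s_at trend call was kept in 10 of 22 alternatives and that of GPC3 over the stages in 10 of 23. Between 60dG and 160dG the TNC call was kept in 15 of 23 and the SPARC call in 15 of 21. The FN1 214701_s_at calls were kept in 16 of 20 from 90dG to 125dG and 16 of 21 over the stages. Calls reversed in 0 cases, but differences that were not called could change sign. For FN1 214701_s_at from 60dG to 90dG it was -1.17, and 0.20 without 90dG replicates 2 and 3. Of 270 adult differences 259 moved by less than the spread between arrays. That of DCN 209335_at changed sign, from 0.15 to -0.07 with quantile normalization of all 14 arrays. Groups of 2 or 3 arrays limit what a fetal comparison can show.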
